A study of Mus musculus with 16 samples.

Results

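Heat shock and endoplasmic reticulum (ER) stress genes were measured in T cells of OT-I mice taken from lymph node (LN) or visceral adipose tissue (VAT). The set holds 42 of the 54456 gene rows of the count table, taken by name from a list of cytosolic, mitochondrial and ER chaperones and of the sensors and targets of the unfolded protein response. By role there were 12 cytosolic genes, 3 mitochondrial genes, 14 genes of protein folding in the ER, 5 sensors and transcription factors, 4 genes of ER-associated degradation and 4 targets of eIF2alpha and ATF4 signalling. All 42 were found, and 40 passed the filter on low counts and were tested. Chac1 and Asns did not pass it.

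OT-I mice carry a transgenic T cell receptor for a peptide of ovalbumin presented by MHC class I, so most of their T cells are of the CD8 lineage, and all 4 groups share this transgene. The groups were HFD LN and HFD VAT, from mice kept for 8 weeks on a high-fat diet with 60% of its calories from fat, and lean LN and lean VAT, from mice on standard chow for the same 8 weeks, with 4 libraries each. The term Neg-OVA is attached to every library and is not explained. The age of the mice, pooling of mice and any other allele are not stated in the labels used here. The labels call the cells freshly isolated in one field, while the design text has them kept in culture overnight before T cells were sorted, so the time between tissue and lysis is not settled. The libraries are named as biological replicates without saying that each came from its own animal, so the p-values rest on the spread between these libraries, some of which may be technical.

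Chaperones of the Hsp70 and Hsp90 families fold new and damaged proteins, and cells keep separate sets of them in the cytosol, the mitochondria and the ER. Damage in the cytosol releases the transcription factor HSF1, which binds heat shock elements, while unfolded protein in the ER is sensed by IRE1 (gene Ern1), PERK (gene Eif2ak3) and ATF6, which act through XBP1, through phosphorylation of eIF2alpha with translation of ATF4, and through cleaved ATF6. T cells enlarge the ER and its folding machinery when they are activated and secrete effector proteins.

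Promoter sequences were searched for the letters of the elements that these factors bind. RefSeq windows of 250 bases before the start of the gene (build GRCm38.p6) were at hand for 34 of the 42 genes. Hspa8, Hsp90aa1, Hsp90ab1, Hsf1, Hspa9, Manf, Hyou1 and Atf6 were not in the table. Each window was searched on both strands for 4 motifs. The ER stress element is CCAAT, 9 bases and CCACG, the heat shock element is 3 alternating units of GAA and TTC that stand 2 bases apart, the UPR element is TGACGTGG, whose last letters are the reverse complement of the CCACG of the ER stress element, and the ATF4 composite element is TGATGNAA. Of all 32851 windows of this length, 0.113% held the ER stress element, 0.466% the heat shock element, 0.563% the UPR element and 3.45% the ATF4 element.

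The ER stress element was found in 7 of the 12 ER folding genes with a window (Hspa5, Hsp90b1, Calr, Canx, Pdia6, Dnajc3 and Creld2) and in Syvn1 of ER-associated degradation, and in none of the other 26 genes with a window. The ATF4 element was found in Chac1, Asns and Herpud1. The heat shock element was found in the mitochondrial genes Hspd1 and Hspe1, which are transcribed head to head from overlapping windows, and in none of the 8 cytosolic genes with a window. The UPR element was found in none of the 34. The promoters of 4 genes with the ER stress element and of 1 gene with the heat shock element are printed, because Hspa5 and Hsp90b1 rose in VAT, Calr and Pdia6 carry the same element without a call, and Hspe1 carries the other element. They read 5′ to 3′ along the gene, and capitals mark the motif.
Hspa5 (chr2:34771840-34772089, plus strand): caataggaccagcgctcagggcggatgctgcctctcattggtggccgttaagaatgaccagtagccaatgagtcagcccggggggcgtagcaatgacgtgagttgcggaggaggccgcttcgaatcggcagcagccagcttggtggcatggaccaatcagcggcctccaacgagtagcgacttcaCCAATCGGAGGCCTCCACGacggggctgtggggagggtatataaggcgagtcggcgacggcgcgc
Hsp90b1 (chr10:86705445-86705694, minus strand): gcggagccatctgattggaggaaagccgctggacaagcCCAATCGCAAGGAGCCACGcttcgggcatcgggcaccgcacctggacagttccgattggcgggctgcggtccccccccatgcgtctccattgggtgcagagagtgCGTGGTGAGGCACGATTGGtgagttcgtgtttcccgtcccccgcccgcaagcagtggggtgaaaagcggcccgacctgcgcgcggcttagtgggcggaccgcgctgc
Calr (chr8:84846932-84847181, minus strand): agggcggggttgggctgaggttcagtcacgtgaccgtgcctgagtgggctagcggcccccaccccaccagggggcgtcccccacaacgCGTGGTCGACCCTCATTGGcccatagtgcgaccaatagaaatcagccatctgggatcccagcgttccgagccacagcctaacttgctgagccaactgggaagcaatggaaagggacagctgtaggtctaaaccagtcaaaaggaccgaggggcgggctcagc
Pdia6 (chr12:17266339-17266588, plus strand): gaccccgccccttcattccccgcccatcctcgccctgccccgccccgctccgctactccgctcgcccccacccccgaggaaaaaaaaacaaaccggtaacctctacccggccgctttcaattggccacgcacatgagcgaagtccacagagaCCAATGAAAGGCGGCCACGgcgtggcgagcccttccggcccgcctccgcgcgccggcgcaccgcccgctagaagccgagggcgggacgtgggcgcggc
Hspe1 (chr1:55087898-55088147, plus strand): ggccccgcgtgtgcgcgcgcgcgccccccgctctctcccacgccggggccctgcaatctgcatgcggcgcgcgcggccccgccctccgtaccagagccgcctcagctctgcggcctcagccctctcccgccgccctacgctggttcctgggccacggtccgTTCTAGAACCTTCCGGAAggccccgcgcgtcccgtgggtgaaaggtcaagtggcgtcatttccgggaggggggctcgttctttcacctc

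Hsp90b1 held 2 ER stress elements and Hspa5 held 1. In Calr and in the second copy of Hsp90b1 the element lies on the opposite strand. A match is a match of letters and does not show that a factor binds there, and no match says only that these letters are not in the window.

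The libraries held 40212388 to 65957407 counts. Levels are given as TMM-normalised CPM (each count divided by the effective size of its library, scaled as a rate), not per length, so a level is compared between groups and not between genes. One library stood furthest apart for these genes: in replicate 1 of lean VAT, 6 of them were under 1/3 of the lowest of the other lean VAT libraries (Hsph1, Hspa9, Hspd1, Hspa5, Canx and Pdia6). By the same measure replicate 2 of HFD LN had 4 (Hspa4, Hsph1, Bag3 and Dnajc3) and replicate 2 of lean LN 3 (Hsph1, Atf6 and Sel1l). Replicate 1 of lean VAT also had the largest share of otherwise expressed genes at 3 counts or fewer (13.1%), followed by replicates 3 and 1 of HFD VAT (11.3% and 11.2%), against 0.797% to 5.31% in the others. The called genes, the sums and the diet differences in VAT of the called genes are also given without these 3 libraries. The summed level of 7 T cell genes was 6955 to 9439 CPM in the 16 libraries, and the 5 adipocyte genes summed to at most 2.00 CPM. The LN libraries also held B cell transcripts. The 7 B cell genes summed to 1575 to 2291 CPM in HFD LN and 1487 to 2644 in lean LN. In VAT they summed to 169 to 359.8 CPM on HFD and 85.6 to 220.3 in lean mice.

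Several of these genes have near copies, and counts can be split between copies in a way the table does not show. Of the 31-base words of the GENCODE M21 transcripts, 73.9% of those of Hspa8 also occurred in other genes, 68.9% in Gm15459 alone, which held 46137 counts in the table beside 838285 of Hspa8. All 16 genes that share any word with Hspa8 held 206503 counts together. The shared percentage was 54.1% for Hsp90aa1, 15.5% for Hsp90ab1, 16.9% for Hsp90b1, 53.1% for Hspd1, 59.1% for Hspe1 and 29.5% for Dnaja1. The 22 genes that share any word with Hsp90aa1 held 1213511 counts beside 131557 of its own, and Gm12346, which shares the most (49.0%), held 11126. A gene counts here even if it shares few words. How far this moves the level of a gene was not measured.

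**Figure D1:**
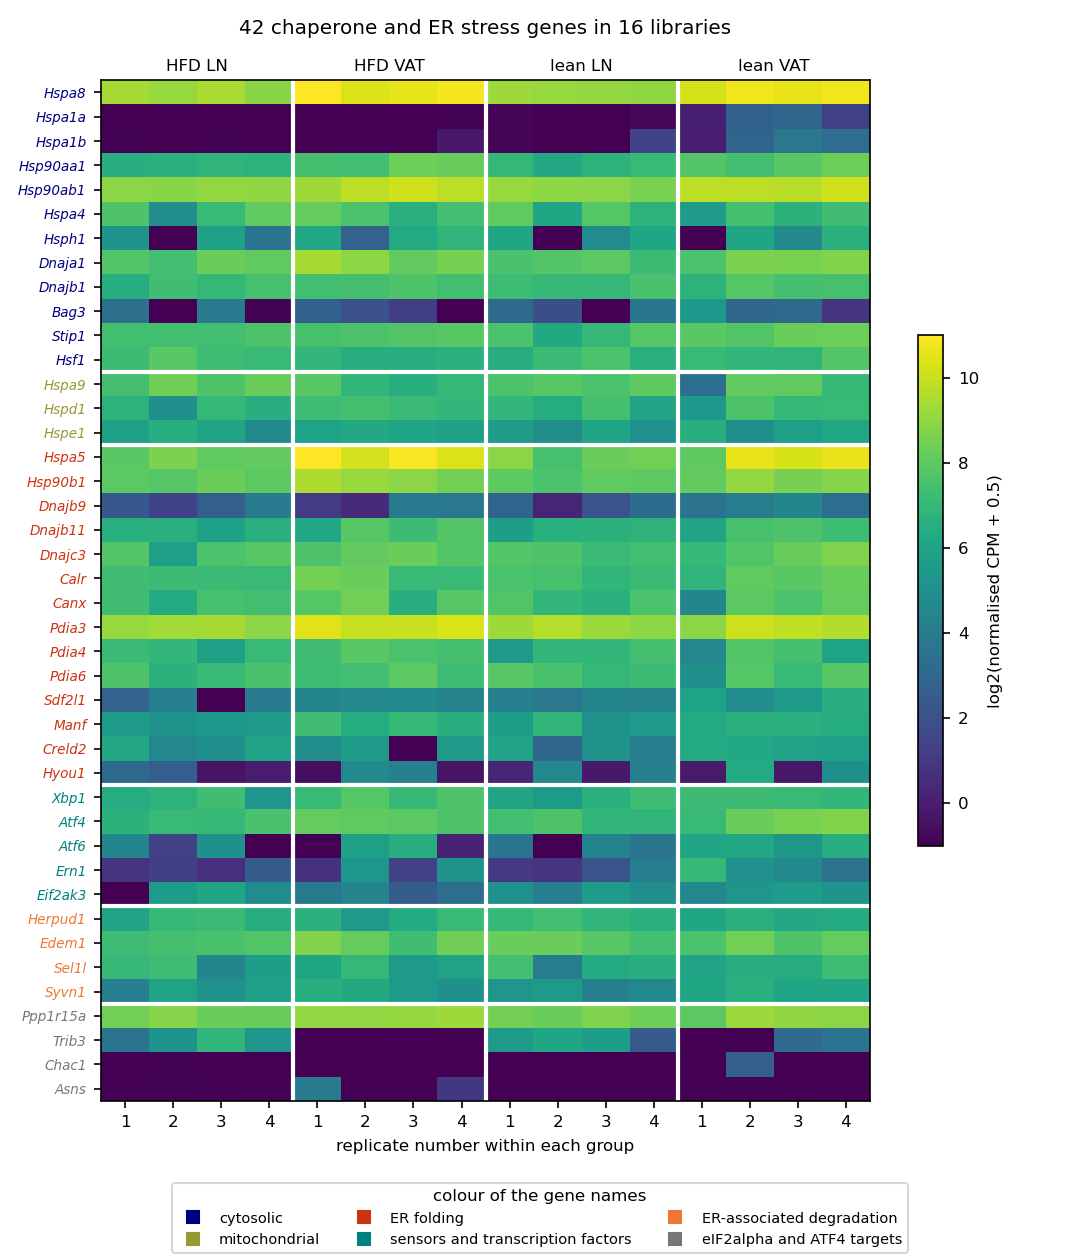
Level of the 42 genes in the 16 libraries, as log2(normalised CPM + 0.5), 1 row per gene and 1 column per library, with gene names coloured by role. Colours compare libraries along a row: Hspa8 and Hspa5 are brightest in VAT, except for Hspa5 in replicate 1 of lean VAT. Hspa1a and Hspa1b rise above the darkest colour mainly in lean VAT, and Trib3 is dark in all 4 HFD VAT libraries.

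The first question was how these genes differ between fat and lymph node in mice on HFD. In total 7 genes rose in VAT: the cytosolic chaperones Hspa8, Hsp90aa1 and Hsp90ab1 and the ER folding genes Hspa5, Hsp90b1, Pdia3 and Manf, and 1 gene fell, Trib3, a pseudokinase induced by ATF4. The 8 calls are 20.0% of the 40 genes tested, where 4.56% of all 15675 genes tested were called (2.68% rose and 1.88% fell). Called genes tend to be abundant, and among genes of at least 50 CPM on average 7 of 28 in the set were called (25.0%) against 9.38% of all such genes. The estimate was above 0 for 32 of the 40, with a median log2 fold change of 0.73 against -0.0979 over all genes tested. In bulk RNA of a sorted population, a change in the mix of cells and a change of RNA per cell cannot be told apart.

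Hspa8 encodes the constitutive cytosolic Hsp70, which folds nascent chains and uncoats clathrin vesicles. It stood at 672, 576, 704 and 469.8 CPM in the HFD LN libraries and at 2036, 1339, 1487 and 1848 CPM in the HFD VAT libraries. Every VAT library was above every LN library, and the gene rose 2.77-fold (log2 1.47, SE 0.17, edgeR adjusted p = 1.16e-04). The cytosolic Hsp90 chaperones, which stabilise kinases and receptors, come as an inducible gene, Hsp90aa1, and a constitutive one, Hsp90ab1. Hsp90aa1 was at 91.4, 98.0, 115 and 107 CPM in LN and 173, 168, 331 and 291 CPM in VAT. The groups did not overlap, with replicates 3 and 4 of VAT the highest, and Hsp90aa1 rose 2.34-fold (SE of the log2 value 0.28, edgeR adjusted p = 0.0211). This call was lost with limma voom (adjusted p = 0.0529) and, with edgeR, without replicate 1, 2 or 4 of LN or replicate 3 or 4 of VAT (adjusted p = 0.0650, 0.0626, 0.0569, 0.0625 and 0.0573). Hsp90ab1 was at 484, 465, 538 and 508 CPM in LN and 630.5, 904, 1127 and 907 CPM in VAT, again without overlap, and rose 1.79-fold (SE 0.17, edgeR adjusted p = 0.00983).

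The remaining 9 cytosolic genes were not called by edgeR, while DESeq2 called Dnaja1 as higher (adjusted p = 0.0491). The 4 most abundant of them were Dnaja1, an Hsp40 co-chaperone (244 ± 62.6 CPM in LN and 449 ± 165 in VAT, edgeR adjusted p = 0.132), Stip1, which links Hsp70 to Hsp90 (173 ± 18.6 and 209 ± 23.1), Hspa4, a nucleotide exchange factor (158 ± 102 and 187 ± 75.9), and Dnajb1, an Hsp40 induced by heat (139 ± 40.5 and 178 ± 18.7). Hsf1, the factor that switches on the heat shock response, had 151, 241, 154 and 136 CPM in LN and 125, 88.0, 90.4 and 100.2 CPM in VAT. Its libraries did not overlap, with VAT the lower, but it missed the threshold (log2 -0.76, SE 0.30, edgeR adjusted p = 0.184). The genes that mark an acute heat shock response, Hspa1a and Hspa1b, were at or near 0 in both tissues on HFD: 7 of the 8 libraries held no count of Hspa1a, and Hspa1b reached at most 0.396 CPM, in replicate 4 of VAT.

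Hspa5 encodes BiP, the Hsp70 of the ER, which also holds the stress sensors inactive until unfolded protein draws it away. It was at 247, 397, 272 and 277 CPM in LN and 2060.4, 1141, 1939 and 1341 CPM in VAT on HFD. The lowest VAT library lay well above the highest LN library, and Hspa5 rose 5.43-fold (log2 2.44, SE 0.46, edgeR adjusted p = 0.00605). Hsp90b1 encodes GRP94, the Hsp90 of the ER, with integrins and Toll-like receptors among its clients. Its levels were 251, 228, 317 and 250.1 CPM in LN and 728, 575, 482 and 358 CPM in VAT, without overlap, a 2.05-fold rise (SE 0.23, edgeR adjusted p = 0.0196). Its edgeR call was lost without replicate 1, 2 or 4 of LN or replicate 1 or 2 of VAT (adjusted p = 0.0620, 0.0650, 0.0657, 0.0629 and 0.0509).

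Pdia3 encodes ERp57, a disulphide isomerase that works with calreticulin on glycoproteins and in the peptide-loading complex of MHC class I. It had 570.0, 639, 676 and 488 CPM in LN and 1397, 992, 1033 and 1259 CPM in VAT. All VAT libraries were above all LN libraries, and the rise was 1.97-fold (SE 0.23, edgeR adjusted p = 0.0234). With edgeR the call was lost without replicate 1, 2 or 4 of LN or replicate 1 or 4 of VAT (adjusted p = 0.0668, 0.0521, 0.0800, 0.0716 and 0.0560). Manf, a secreted ER-resident protein that is induced by ER stress, had 48.1, 35.6, 41.3 and 43.0 CPM in LN and 161, 85.1, 131 and 94.4 CPM in VAT. Its groups did not overlap either, and it rose 2.81-fold (SE 0.37, edgeR adjusted p = 0.0313). For Manf the edgeR call was lost without replicate 1, 2, 3 or 4 of LN or replicate 1 or 3 of VAT (adjusted p = 0.0640, 0.0920, 0.0780, 0.0796, 0.0902 and 0.0676).

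Of the 14 ER folding genes 10 were not called, and 9 of these 10 had an estimate above 0. The 4 most abundant were Dnajc3, an ER Hsp40 (178 ± 83.8 CPM in LN and 251 ± 52.0 in VAT), the lectin chaperone genes Calr (149.5 ± 8.28 and 234 ± 112) and Canx (145 ± 43.0 and 228 ± 107), and the isomerase gene Pdia6 (158 ± 47.9 and 181 ± 46.8). Calr split the HFD VAT libraries into 356 and 303 CPM in replicates 1 and 2 and 137 and 142 CPM in replicates 3 and 4. The estimate below 0 was that of Creld2, an ER protein with an isomerase-like domain, at 30.5, 47.1, 0 and 47.1 CPM in VAT. Pdia4 and Sdf2l1 did not overlap between the groups but missed the threshold (edgeR adjusted p = 0.600 and 0.678). In all, 13 of the 40 genes had no overlap between HFD VAT and HFD LN, beside 15.2% of all genes tested.

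**Figure D2:**
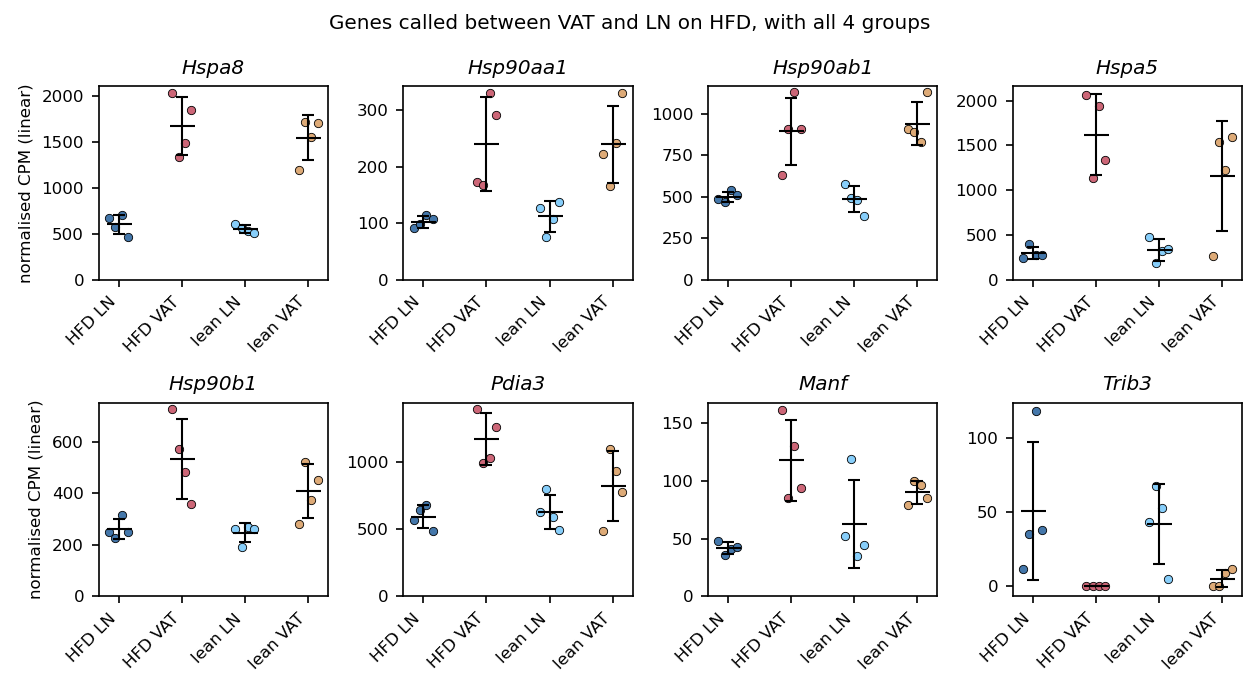
Normalised CPM (linear axis) of the 8 genes called between VAT and LN on HFD, in all 4 groups, 1 point per library, with bars for the mean ± SD (n = 4). On HFD the VAT and LN points are separate in every panel, and in lean mice replicate 1 of VAT lies within the LN range for Hspa5 and below it for Pdia3.

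None of the 5 sensors and transcription factors was called on HFD by edgeR, 2 had an unadjusted p under 0.05, DESeq2 called 1 (Ern1) and limma voom 0. Atf4, translated when eIF2alpha is phosphorylated, had 104, 139, 130.3 and 189 CPM in LN and 285, 268, 250.3 and 203 CPM in VAT, without overlap (log2 0.84, SE 0.31, edgeR adjusted p = 0.153). Xbp1, whose mRNA is spliced by IRE1, had 97.7 ± 50.1 CPM in LN and 175 ± 49.7 in VAT. Counts per gene do not separate its spliced form. Ern1, which encodes IRE1, was at 1.16, 39.2, 2.01 and 33.7 CPM in the VAT libraries and 1.10 to 5.19 CPM in LN, with replicates 2 and 4 of VAT above all LN libraries (log2 3.00, SE 1.28). Eif2ak3 (PERK) had 36.7 ± 29.7 CPM in LN and 12.3 ± 6.32 in VAT, and Atf6 14.0 ± 15.6 and 35.9 ± 43.0, with libraries at 0 in both tissues for Atf6.

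The 4 genes of ER-associated degradation, which extract misfolded proteins from the ER for the proteasome, gave no call in either diet with edgeR. In each diet 1 of them had an unadjusted p under 0.05, DESeq2 called 0 in both, and voom called 0 on HFD and 1 (Syvn1, as higher in VAT) in lean mice. Edem1, a lectin that targets glycoproteins, had 183 ± 24.8 CPM in LN and 301 ± 108 in VAT, Herpud1 106 ± 37.5 and 90.9 ± 38.0, Sel1l 88.6 ± 61.5 and 73.3 ± 36.4, and the ligase gene Syvn1, a partner of Sel1l, 41.6 ± 19.8 and 61.9 ± 27.6. The 3 mitochondrial genes were not called either: Hspa9, which drives protein import, had 256 ± 75.1 CPM in LN and 147 ± 66.7 in VAT, and the chaperonin pair Hspd1 and Hspe1 had 89.6 ± 40.0 and 59.6 ± 26.2 in LN and 150.4 ± 21.7 and 64.7 ± 7.88 in VAT. In both diets 0 of the 3 had an unadjusted p under 0.05, and DESeq2 and voom called 0.

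Among the targets of eIF2alpha and ATF4 signalling 1 of 2 tested genes fell. Trib3 stood at 11.7, 35.0, 118 and 38.0 CPM in the HFD LN libraries and had no count in any of the 4 HFD VAT libraries. Set against 3 counts in each VAT library, it was at least 714-fold lower in VAT, or at least 398-fold without replicate 3 of LN (edgeR adjusted p = 0.0271 with all libraries), and this bound covers counting error only. The call was lost with limma voom (adjusted p = 0.0855) and, with edgeR, without replicate 3 or 4 of LN or replicate 1, 2, 3 or 4 of VAT (adjusted p = 0.0552, 0.0534, 0.0619, 0.0603, 0.0573 and 0.0560). Ppp1r15a, which encodes GADD34, the subunit that dephosphorylates eIF2alpha, had 343, 445, 309.7 and 298 CPM in LN and 525, 536, 555 and 610.1 CPM in VAT. Its VAT libraries were all above its LN libraries, and it missed the threshold with edgeR (log2 0.67, SE 0.22, adjusted p = 0.108), while DESeq2 and voom called it as higher (adjusted p = 0.0339 and 0.0247). Chac1, which degrades glutathione, and Asns, the asparagine synthetase, were nearly absent: Asns reached 15.3 CPM in replicate 1 and 1.44 CPM in replicate 4 of HFD VAT and at most 0.0501 CPM elsewhere, and Chac1 reached 5.81 CPM in replicate 2 of lean VAT and at most 0.0196 CPM elsewhere.

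The same tissues were then compared in lean mice. Hspa8, Hsp90aa1, Hsp90ab1 and Hspa5 rose in lean VAT, and no gene of the set fell. These 4 calls are 10.0% of the 40 tested, where 3.04% of all genes tested were called (2.12% rose and 0.919% fell), and 14.3% of the 28 genes of at least 50 CPM, where 7.52% of all such genes were called. All 4 were also called on HFD in the same direction. The estimate was above 0 for 35 of the 40, with a median of 0.56 against -0.00289 over all genes, and 30 genes were higher in VAT by estimate in both diets. The libraries of the groups did not overlap for 9 of the 40, where 12.9% of all genes tested had no overlap.

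Hspa8 was at 613, 559, 531 and 512 CPM in lean LN and 1197, 1724, 1558 and 1711 CPM in lean VAT, without overlap, and rose 2.80-fold (SE of the log2 value 0.17, edgeR adjusted p = 1.44e-04). Hsp90ab1 was at 576, 494, 479 and 385 CPM in LN and 906, 891, 831 and 1128 CPM in VAT and rose 1.94-fold (SE 0.17, edgeR adjusted p = 0.00446). For both of these genes the fold was close to the one on HFD, and the difference between diets in the tissue effect was -0.01 (SE 0.23) for Hspa8 and -0.12 (SE 0.24) for Hsp90ab1 on the log2 scale. Hsp90aa1 was at 127, 74.9, 108 and 139 CPM in LN and 222, 166, 243 and 330.2 CPM in VAT. Its groups did not overlap, and it rose 2.14-fold, close to the threshold (SE 0.28, edgeR adjusted p = 0.0482). The call was lost without replicate 1, 2, 3 or 4 of LN or replicate 1, 3 or 4 of VAT (adjusted p = 0.0965, 0.138, 0.137, 0.0707, 0.0680, 0.110 and 0.163) with edgeR, and also with RLE normalisation (adjusted p = 0.0750), without the filter (0.172) and with only the lean groups in the fit (0.105).

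Hspa5 was at 478, 182, 316 and 346 CPM in lean LN and 264, 1538, 1222 and 1591 CPM in lean VAT. Replicate 1 of VAT lay within the LN range, and the other 3 VAT libraries were above all LN libraries. The gene rose 3.49-fold (log2 1.80, SE 0.45, edgeR adjusted p = 0.0441). Without replicate 1 of VAT the call held (adjusted p = 0.00127), and it was lost without replicate 1, 2, 3 or 4 of LN or replicate 2, 3 or 4 of VAT (adjusted p = 0.0600, 0.130, 0.131, 0.122, 0.123, 0.101 and 0.130). It was also lost with RLE normalisation (adjusted p = 0.0643), without the filter (0.103) and with only the lean groups in the fit (0.171). Pdia3 was uncalled by edgeR in lean mice, at 626, 801, 586 and 493 CPM in LN and 482, 1094, 936 and 775 CPM in VAT (log2 0.39, SE 0.22, adjusted p = 0.539), while voom called it as higher (adjusted p = 0.0169). Here too replicate 1 of VAT was the lowest library of its group, below all LN libraries. Hsp90b1 had 264, 193, 271 and 261 CPM in LN and 279, 524, 375 and 454 CPM in VAT, without overlap. It missed the threshold with edgeR (log2 0.72, SE 0.23, adjusted p = 0.138), and voom called it as higher (adjusted p = 0.0118). Manf, at 52.6, 119, 35.0 and 44.5 CPM in LN and 79.0, 100.2, 96.4 and 85.4 CPM in VAT, overlapped through replicate 2 of LN (adjusted p = 0.668 with edgeR). Voom called Manf too as higher (adjusted p = 0.0336). Over all 15675 genes tested in lean mice voom called 1350 and edgeR 476.

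Atf4 was at 163, 200.2, 123 and 116 CPM in lean LN and 138, 307, 382 and 422 CPM in lean VAT, with replicate 1 of VAT again among the LN libraries (log2 1.05, SE 0.31, edgeR adjusted p = 0.0995). Without that library the groups did not overlap and Atf4 passed (log2 1.29, edgeR adjusted p = 0.00769), as it did with DESeq2 (adjusted p = 0.0333) and voom (0.00191). Of the 5 sensors and transcription factors edgeR called 0 in lean mice, 2 had an unadjusted p under 0.05, and DESeq2 and voom each called Atf4 alone. Trib3, which fell on HFD, had 43.2, 67.8, 53.0 and 4.54 CPM in lean LN and 0, 0, 8.77 and 11.4 CPM in lean VAT. The lean groups overlapped through replicate 4 of LN, and the gene was not called (edgeR adjusted p = 0.621). Ern1 had 132, 33.1, 26.4 and 11.3 CPM in lean VAT and 1.33 to 15.9 CPM in lean LN (edgeR adjusted p = 0.275).

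The remaining genes that edgeR left uncalled in lean mice are given by their group means. Of these, voom called Dnaja1, Ppp1r15a (adjusted p = 0.0183) and Syvn1 (adjusted p = 0.0357) as higher in VAT, and DESeq2 called none. Among the abundant ones Dnaja1 had 203 ± 43.0 CPM in LN and 348 ± 106 in VAT, Stip1 158 ± 68.5 and 275 ± 54.5, Dnajc3 184 ± 36.0 and 263 ± 119, Calr 161 ± 35.3 and 231 ± 78.8, Canx 156 ± 53.5 and 188 ± 118, and Pdia6 175 ± 47.2 and 158 ± 94.7. Xbp1 had 91.6 ± 47.5 and 139 ± 12.8 CPM, Ppp1r15a 354 ± 44.2 and 462 ± 148, Edem1 255 ± 64.3 and 259 ± 74.4, and Herpud1 128 ± 29.3 and 80.6 ± 12.1. Herpud1 was the lower in VAT by estimate in both diets (log2 -0.67, SE 0.34 in lean mice), without a call in either. Syvn1 had 39.0, 44.4, 18.5 and 23.6 CPM in LN and 68.9, 96.6, 65.7 and 68.7 CPM in VAT, without overlap (edgeR adjusted p = 0.230). The mitochondrial genes Hspa9 (222 ± 32.3 and 171 ± 126), Hspd1 (113 ± 49.2 and 127 ± 64.4) and Hspe1 (44.6 ± 17.2 and 62.5 ± 26.9) were not called.

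**Figure D3:**
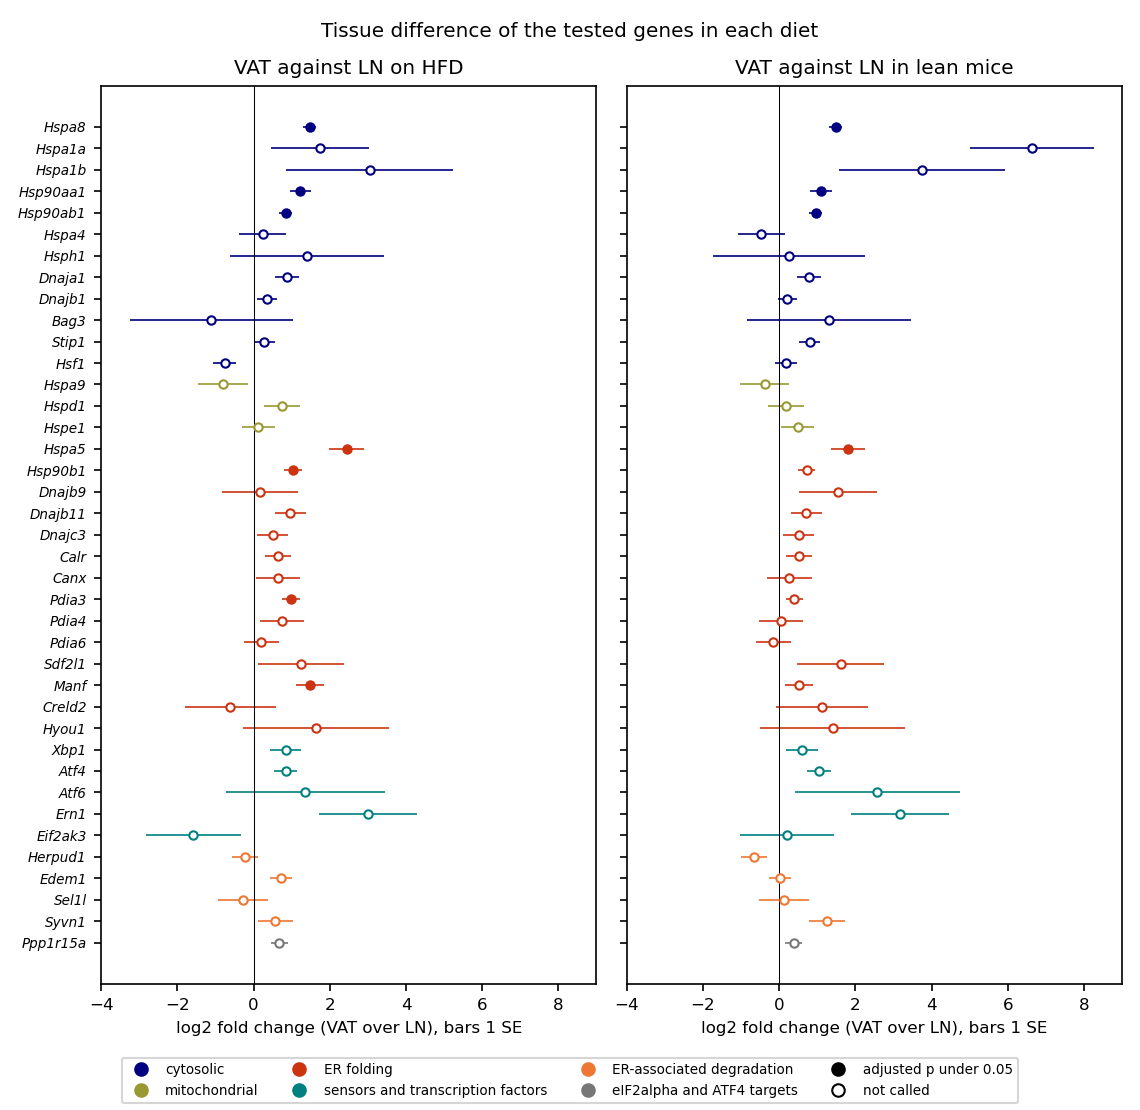
Log2 fold change (VAT over LN) of 39 tested genes on HFD (left) and in lean mice (right). Bars are 1 SE, worked back from the edgeR F statistic, and points are filled where the edgeR adjusted p was under 0.05. Trib3, with no count in HFD VAT, is left out. Filled points appear in the cytosolic and ER folding groups, and the widest bars belong to genes with libraries at or near 0.

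In 5 wider lists of the same systems 4 of 77 genes tested were called in each diet (5.19%), where 4.56% of all genes were called on HFD and 3.04% in lean mice. Of 22 tested cytosolic chaperones and co-chaperones outside the set, 1 rose and 1 fell on HFD: Ubb, a ubiquitin gene (4239 ± 106 CPM in VAT against 2378 ± 184 in LN, edgeR adjusted p = 3.35e-04), and Dnajc7, an Hsp40 (316 ± 52.4 against 704 ± 167 CPM, adjusted p = 0.0298). Ubb also rose in lean mice (adjusted p = 0.00124). The 8 genes of the cytosolic chaperonin, which folds actin and tubulin, and 6 further mitochondrial chaperones and proteases gave 0 calls in either diet with edgeR, with 1 gene of each list at an unadjusted p under 0.05 on HFD and 0 in lean mice. DESeq2 and voom each called 1 chaperonin gene on HFD (Cct3, as higher in VAT), 0 in lean mice and 0 mitochondrial genes. Of 19 tested ER translocation, folding and degradation genes, 1 rose on HFD (Spcs2, of the signal peptidase, 399 ± 56.3 against 226 ± 28.1 CPM, adjusted p = 0.0407) and 1 in lean mice (Selenok, 199 ± 9.89 against 106 ± 10.3 CPM, adjusted p = 0.0338). Of 22 tested stress kinases and ATF4 programme genes, Slc3a2, the heavy chain of amino acid transporters, rose in both diets (761 ± 137 against 190 ± 65.6 CPM on HFD and 648 ± 82.2 against 190 ± 41.5 in lean mice), and Cebpb rose in lean mice (52.1 ± 10.5 against 8.73 ± 3.22 CPM). The medians of these lists ran from -0.54 to 0.47 on HFD and from -0.13 to 0.36 in lean mice on the log2 scale, and the lists were chosen with earlier results of these data known.

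Genes of other kinds moved with tissue beside the chaperones. Of 14 immediate early genes, which tissue digestion and receptor signals induce rapidly, 8 rose and 0 fell in VAT in each diet, where 2.68% of all genes tested rose on HFD and 2.12% in lean mice, among them Junb (1657 ± 77.5 CPM in HFD VAT against 443 ± 10.9 in HFD LN), Fos (1240 ± 325 against 31.3 ± 30.3), Ier2 (709 ± 79.3 against 335 ± 29.3) and Egr1 (760 ± 139 against 95.7 ± 79.2). Their summed level was 7052 to 7717 CPM in HFD VAT, 6335 to 7797 in lean VAT, 2349 to 2729 in HFD LN and 2357 to 3038 in lean LN. The 7 B cell genes summed to 1575 to 2291 CPM in HFD LN and 1487 to 2644 in lean LN against 169 to 359.8 and 85.6 to 220.3 in VAT, with 5 of 6 tested falling on HFD and 4 of 6 in lean mice, where 1.88% and 0.919% of all genes fell. The 6 plasma cell genes, whose cells make much ER chaperone, reached a summed 63.0 CPM in LN and 26.8 CPM in VAT at most, with 4 of the 6 at 0 in all HFD VAT libraries. In each diet edgeR called 0 of the 4 tested and 1 had an unadjusted p under 0.05, DESeq2 called 1 on HFD (Sdc1, as lower in VAT) and 0 in lean mice, and voom called 0. Among 7 T cell genes tested Cd8a rose (2077 ± 215 against 665 ± 112 CPM on HFD) and Cd8b1 fell (1228 ± 119.8 against 2072 ± 133 CPM on HFD), both also in lean mice. Of 4 NK and innate lymphoid genes tested 1 rose in both diets, the NK receptor gene Klre1 (463 ± 82.7 against 5.86 ± 5.45 CPM on HFD). The estimate was above 0 for 2 of these 4 on HFD and 3 in lean mice. Of 6 tested dendritic cell genes 1 fell in each diet (Cd74), and of 2 tested macrophage genes 1 fell on HFD (Apoe) and 0 were called in lean mice, where 1 had an unadjusted p under 0.05, DESeq2 called Apoe as lower and voom Apoe as lower and Cd68 as higher. Cd68, which macrophages express, was uncalled by edgeR (adjusted p = 0.144 on HFD and 0.371 in lean mice) but without overlap, at 26.5 to 131 CPM in HFD VAT against 0 to 2.36 in HFD LN and at 18.9 to 78.6 CPM in lean VAT against 0 to 6.07 in lean LN, and DESeq2 and voom called it as higher on HFD. Xcr1, of the dendritic list, was at 0.319 to 51.9 CPM in HFD VAT against 0.157 to 9.38 in HFD LN and at 6.98 to 34.4 CPM in lean VAT against 0.0560 to 5.28 in lean LN, also uncalled by edgeR. Cd68 and Xcr1 were chosen after their values were seen, and the summed levels of their lists went the other way. By gene the lists were mixed. The estimate was above 0 for 1 of the 2 tested macrophage genes in each diet. It was above 0 for 3 of the 6 tested dendritic genes on HFD and 2 of the 6 in lean mice. Only 2 of the 8 macrophage genes passed the filter. The macrophage list had a mean sum of 67.4 CPM in VAT against 125 in LN on HFD and 50.8 against 109 in lean mice, with overlapping ranges. On HFD Apoe alone averaged 125 CPM in LN and 0.00569 CPM in VAT, so the direction of that sum rests on 1 gene. The dendritic list had 89.9 against 568 CPM on HFD and 82.9 against 764 in lean mice. Cd74 alone averaged 365 CPM in HFD LN and 497 CPM in lean LN, against 33.6 and 34.3 CPM in VAT. The CD4 T cell gene Cd40lg and the fibroblast gene Gsn, the 1 gene tested of each list, fell on HFD, and edgeR called 0 of the 1 endothelial and 2 erythroid genes tested in either diet, with at most 1 of a list at an unadjusted p under 0.05, while DESeq2 called Pecam1 in both diets and Hbb-bs in lean mice and voom called Pecam1 in lean mice, all as lower in VAT. The part of the immediate early genes and of the cell mix in the chaperone differences was not tested.

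The comparison of HFD with lean mice within a tissue asks what the diet did to these genes. In VAT edgeR called 0 of the 40, where 0.0574% of all genes tested were called. Of the 40, 4 had an unadjusted p under 0.05 (Hspa1a, Hspa1b, Pdia3 and Trib3), DESeq2 called 2 (Hspa1a and Trib3, both lower on HFD) and voom called 1 (Hspa1a). In LN edgeR called 0 of the 40, where 0.0% of all genes tested were called, with 2 at an unadjusted p under 0.05 (Hspa1a and Hspa1b) and 0 called by DESeq2 or voom. The interaction of diet and tissue gave 0 calls with edgeR, where 0.0191% of all genes tested were called, 2 at an unadjusted p under 0.05 (Hsf1 and Trib3), 1 by DESeq2 (Trib3) and 0 by voom. The tissue comparisons share their libraries with the diet comparisons.

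The genes that rose in VAT are set against each other in HFD and lean VAT. On the log2 scale the difference of HFD from lean VAT was 0.12 (SE 0.16) for Hspa8, 0.00 (SE 0.27) for Hsp90aa1 and -0.07 (SE 0.17) for Hsp90ab1. For the ER genes it was 0.49 (SE 0.43) for Hspa5, 0.39 (SE 0.23) for Hsp90b1, 0.51 (SE 0.22) for Pdia3 and 0.39 (SE 0.36) for Manf. Every one of these 4 ER estimates was above 0. The genes were picked by a rise that used the same HFD VAT libraries, which tilts these estimates upwards, so their signs do not show a diet effect. Of all 14 ER folding genes, 9 had an estimate above 0 and 5 below. Each of the 4 genes had its lowest lean VAT library in replicate 1. Without that library the 4 estimates were 0.16, 0.25, 0.33 and 0.33 in the same order. Without the 3 VAT libraries with most missing genes they were -0.21, 0.06, 0.28 and -0.05, so those for Hspa5 and Manf changed sign. For the 3 cytosolic genes the values without the 3 libraries were -0.05 (Hspa8, also a change of sign), -0.09 (Hsp90aa1) and -0.05 (Hsp90ab1). A call on HFD without one in lean mice does not show that the tissue effect differed: the difference between diets in the tissue effect was 0.59 (SE 0.32, edgeR adjusted p = 0.875) for Pdia3, 0.96 (SE 0.51, adjusted p = 0.866) for Manf and -11.24 (adjusted p = 0.510) for Trib3, whose fitted value rests on a group without counts.

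Hspa1a and Hspa1b, the heat-inducible cytosolic Hsp70 genes, stood out among the diet values and are described after their values were seen. Hspa1a was at 0.543, 6.18, 7.39 and 2.02 CPM in the lean VAT libraries, at 0, 0, 0 and 0.0233 CPM in HFD VAT, at 0 in all 4 HFD LN libraries and at no more than 0.0934 CPM in lean LN. Hspa1b was at 0.520, 6.76, 13.1 and 9.22 CPM in lean VAT, at 0, 0, 0 and 0.396 CPM in HFD VAT, at no more than 0.0220 CPM in HFD LN and at no more than 2.13 CPM in lean LN. All 4 lean VAT libraries were above all other libraries for Hspa1a, and for Hspa1b replicate 1 of lean VAT was below replicate 4 of lean LN. Against lean LN both were uncalled by edgeR (adjusted p = 0.0569 for Hspa1a and 0.552 for Hspa1b), DESeq2 called Hspa1a (3.60e-04) and voom called both (1.25e-04 and 0.00400). The edgeR adjusted p of HFD against lean VAT was 0.197 for Hspa1a and 0.542 for Hspa1b, and DESeq2 gave 1.83e-05 and voom 0.00485 for Hspa1a. The transcripts share much of their sequence: 63.8% of the 31-base words of Hspa1a occur in transcripts of Hspa1b, so reads can be split between them either way.

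The cytosolic genes were set against the ER folding genes by summing the CPM of each group in every library. The cytosolic sum of 12 genes was 1903 to 2321 CPM in HFD LN and 3577 to 4330.4 CPM in HFD VAT, and 1775 to 2292 CPM in lean LN and 3103 to 4599.7 CPM in lean VAT. In both diets the tissues did not overlap for the cytosolic sum, with VAT 1.89-fold higher on HFD and 1.93-fold higher in lean mice. The ER folding sum of 14 genes was 1960.1 to 2199 CPM in HFD LN and 4282 to 5565 CPM in HFD VAT, 2.28-fold higher and without overlap. In lean mice it was 1988 to 2471 CPM in LN, 4003 to 4816 CPM in replicates 2 to 4 of VAT and 1651 CPM in replicate 1 of VAT, below every LN library. The cytosolic sum of that library (3103 CPM) was above all LN libraries.

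The ER sum divided by the cytosolic sum was 1.04, 1.03, 0.909 and 0.985 in the HFD LN libraries and 1.29, 1.25, 1.22 and 1.02 in the HFD VAT libraries. It was 1.08, 1.27, 0.960 and 1.14 in lean LN and 0.532, 1.20, 1.06 and 0.986 in lean VAT. The tissues overlapped in both diets, through replicate 4 of HFD VAT and replicates 1 and 2 of HFD LN and throughout in lean mice. The mean log2 ratio of VAT less that of LN was 0.267 on HFD and -0.290 in lean mice, and without the 3 VAT libraries with most missing genes these differences were 0.192 and -0.0348. Hspa5 made up 11.2% to 20.3% of the ER sum in HFD LN and 25.5% to 40.6% in HFD VAT, and without Hspa5 the difference on HFD was -0.104. Without Hspa5 the ER sum still stood 1.75-fold higher in HFD VAT than in HFD LN, beside 1.89-fold for the cytosolic sum with Hspa8 kept. In lean mice the ER sum without Hspa5 was 1.38-fold higher in VAT with the tissues overlapping, beside 1.93-fold for the cytosolic sum. The 2 sides are not like for like here, because Hspa5 was taken out of one and Hspa8 stayed in the other. A cytosolic sum without Hspa8 was not compared, so these values do not order the remaining genes. Without the 3 VAT libraries with most missing genes VAT was 2.09-fold (HFD) and 2.01-fold (lean) higher than LN for the ER sum, 1.75-fold and 1.59-fold for the ER sum without Hspa5, and 1.83-fold and 2.06-fold for the cytosolic sum, and the tissues did not overlap in any of these. Hspa8 made up 21.9% to 31.6% of the cytosolic sum in HFD LN and 37.4% to 47.0% in HFD VAT, with 25.7% to 31.5% and 37.2% to 43.1% in lean mice.

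**Figure D4:**
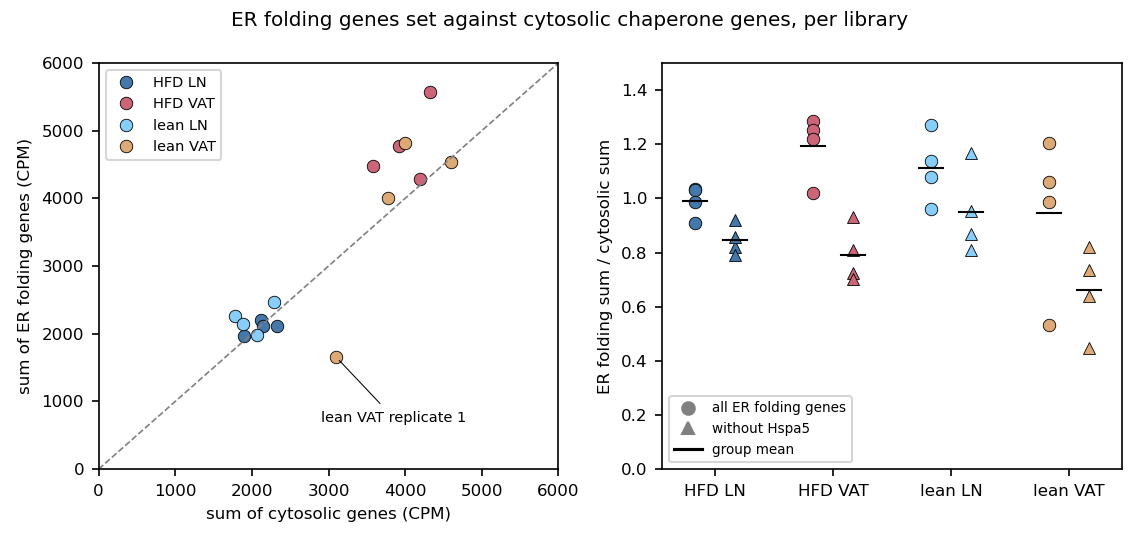
Left, the summed normalised CPM of the 14 ER folding genes against that of the 12 cytosolic genes, 1 point per library, with a dashed line where they are equal; right, their ratio by group with all ER genes (circles) and without Hspa5 (triangles), with lines at the means. The VAT libraries lie at the upper right except for replicate 1 of lean VAT, and the HFD VAT ratios are 1.02 to 1.29 with Hspa5 and 0.701 to 0.932 without it.

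The 5 sensors and transcription factors summed to 213 to 391 CPM in HFD LN and 434 to 608 CPM in HFD VAT, and to 264 to 327 CPM in lean LN and 509 to 681 CPM in lean VAT, without overlap between tissues in either diet. The mitochondrial sum was 339.7 to 457 CPM in HFD LN and 301 to 461 CPM in HFD VAT, 352 to 441 CPM in lean LN and 145 to 501 CPM in lean VAT, so the tissues overlapped in both diets. The 4 genes of ER-associated degradation also overlapped, at 363 to 521 CPM in HFD LN, 333 to 677 CPM in HFD VAT, 382 to 645 CPM in lean LN and 392 to 632 CPM in lean VAT.

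The genes differed in how evenly the libraries of a group carried them. Among genes of at least 10 CPM in a group, the median coefficient of variation was 29.4% in HFD LN, 29.7% in HFD VAT, 34.2% in lean LN and 34.1% in lean VAT. Calr in HFD LN had the lowest value of that group (5.54%), as did Ppp1r15a in HFD VAT (6.81%), Hspa8 in lean LN (7.90%) and Xbp1 in lean VAT (9.24%). The most uneven were Atf6 on HFD (111% in LN and 119.9% in VAT) and Hyou1 in lean mice (111% and 134%). Hyou1, an ER Hsp110, was at 0.407, 80.8, 0.362 and 31.4 CPM in lean VAT and 0.175, 26.1, 18.0 and 0.280 CPM in HFD VAT. Hsph1, its cytosolic relative, was at 0 in replicate 2 of HFD LN, replicate 2 of lean LN and replicate 1 of lean VAT and between 6.39 and 115 CPM in the other 13 libraries. For such genes the standard error was large (log2 1.92 for Hyou1 and 2.03 for Hsph1 between tissues on HFD), and with 4 libraries even a difference of several standard errors could go uncalled. Hspa1a between tissues in lean mice, at log2 6.63 with an SE of 1.63, was uncalled by edgeR.

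The remaining ER and cytosolic genes included no further edgeR call in any comparison. Sdf2l1, a small ER chaperone cofactor and a target of ATF6, was at 6.24, 17.9, 0 and 14.4 CPM in HFD LN, 21.9, 24.3, 25.5 and 19.9 CPM in HFD VAT, 18.0, 13.1, 21.6 and 20.4 CPM in lean LN and 62.5, 28.7, 45.9 and 87.4 CPM in lean VAT. Every lean VAT library was above every library of the other groups (log2 1.62, SE 1.14, edgeR adjusted p = 0.687 against lean LN, and log2 -1.29, SE 1.13, adjusted p = 1.00 for HFD VAT against lean VAT). Dnajb11, an Hsp40 of the ER, had 70.9, 238, 149.9 and 221 CPM in HFD VAT and 64.2, 182, 201 and 152 CPM in lean VAT, with replicate 1 the lowest of each, against 57.4 to 97.7 CPM in HFD LN and 50.7 to 111 CPM in lean LN. Dnajb9, another ER Hsp40, reached at most 15.1 CPM in HFD LN and 22.1 CPM in lean VAT. Bag3, a co-chaperone that HSF1 induces, had 42.4, 7.28, 8.41 and 1.23 CPM in lean VAT, so its highest library was replicate 1, and 0 to 6.11 CPM in HFD VAT.

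**Figure D5:**
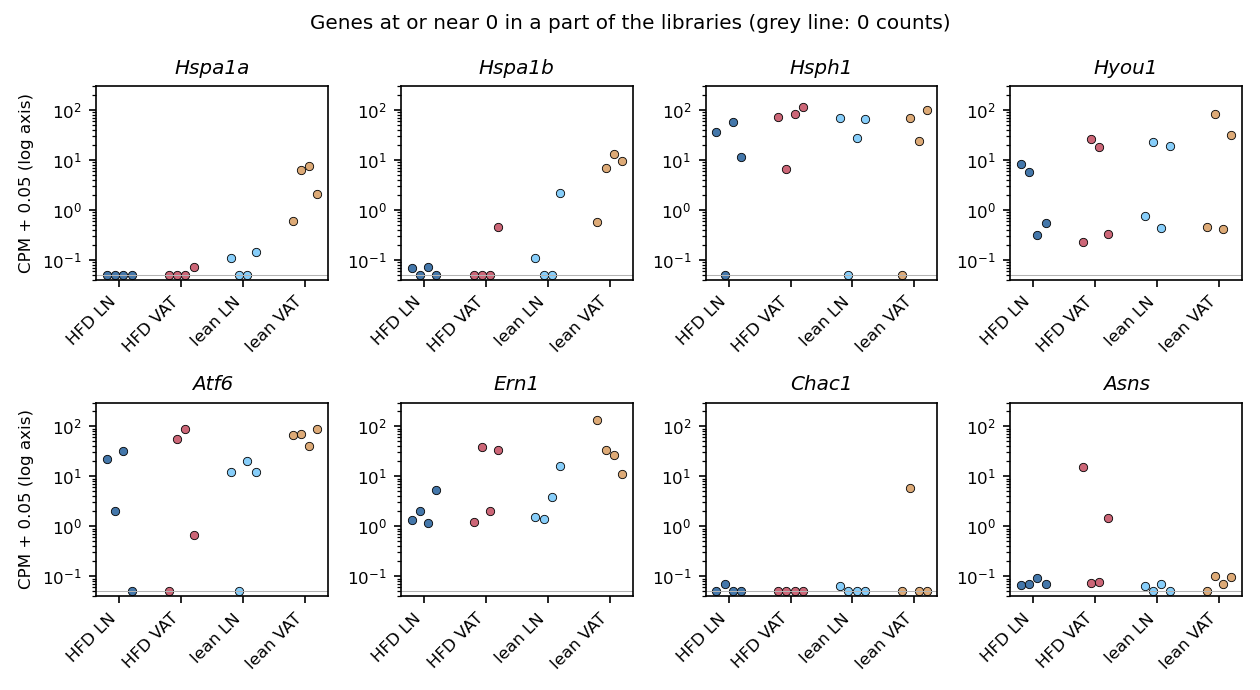
Normalised CPM + 0.05 (log axis) of 8 genes with libraries at or near 0, chosen after their values were seen, 1 point per library in the 4 groups; the grey line marks 0 counts. Hsph1, Hyou1 and Atf6 lie near 0 in some libraries and over 20 CPM in others of a group, while Hspa1a and Hspa1b have their highest 3 libraries in lean VAT.

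Hspa8 and Hsp90ab1 in both diets and Hspa5 on HFD were called by edgeR, DESeq2 and voom and in every other setting run, each library left out in turn included. Without the 3 VAT libraries with most missing genes 5 genes were called on HFD (Hspa8, Hsp90ab1, Hspa5, Pdia3 and Dnajb11) and 5 in lean mice (Hspa8, Hsp90ab1, Hspa5, Dnaja1 and Atf4). On HFD the rise was then 2.60-fold for Hspa8, 1.80-fold for Hsp90ab1, 4.11-fold for Hspa5 and 1.87-fold for Pdia3, while Hsp90aa1 (2.20-fold), Hsp90b1 (1.76-fold), Manf (2.11-fold) and Trib3 missed the threshold (edgeR adjusted p = 0.0806, 0.0776, 0.207 and 0.0678). In lean mice it was 2.94-fold for Hspa8, 1.92-fold for Hsp90ab1 and 4.28-fold for Hspa5, and Hsp90aa1 (2.14-fold) missed the threshold (adjusted p = 0.0729). Without the filter on low counts the HFD calls of Hsp90aa1, Hsp90b1, Pdia3 and Manf were lost (edgeR adjusted p = 0.0613, 0.0608, 0.0650 and 0.0942). The fold change of each called gene kept its sign in the 17 alternative settings of its comparison.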

How the data were processed

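RNA of sorted OT-I T cells was sequenced in 16 libraries, 4 for each combination of tissue and diet. The deposited values are whole-number counts per gene, and the submitters' processing notes name kallisto 0.42.4, DESeq2 and the human build GRCh38, although the gene names are those of mouse. How kallisto's estimates became whole counts is not given in the sources used here. The labels name 2 library kits and sequencers, and 1 growth text describes another cell type.

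Counts were fitted with edgeR 4.0.16 (quasi-likelihood F-test, TMM normalisation, filterByExpr, all 4 groups in 1 model) in R 4.3.3. Each SE quoted with edgeR was worked back from this test, as the absolute log2 fold change divided by the square root of F. It can be erratic for genes at or near 0. For Hspa1a it was 1.84 for diet in VAT, 1.52 for diet in LN and 28.1 for the difference of these effects. Benjamini-Hochberg adjustment ran over the 15675 genes tested, with a threshold of 0.05. The steps were tested on simulated data. DESeq2 1.42.0, limma 3.58.1 (voom with quality weights), other normalisations and filters, a replicate block and fits without single libraries were the alternatives. Tables and plots used Python 3.11.15, pandas 2.3.3, NumPy 2.4.6 and Matplotlib 3.10.9.

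The genes and lists were chosen with earlier results of these data known. Named are all called genes of the set, up to 4 uncalled genes per role with the highest mean CPM, and at most 4 called genes per wider list; other names were chosen after their values were seen. Depth was 40212388 to 65957407 counts, and the limit set by 3 counts covers counting error only, since reads carry no molecular identifiers.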

Additional observations from a re-analysis of the deposited data

Results flagged for a closer look

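Within groups of 4 libraries, 188 sets of values were examined for 1 library far from the other 3 (a gap past Dixon's critical value for 4), and 10 met that rule. Chance flags about 1 in 20 groups, and 10 of 188 is near that share. Of these, 3 come from the heat-inducible Hsp70 genes at a trace level: Hspa1a at 0.0233 CPM and Hspa1b at 0.396 CPM in replicate 4 of HFD VAT, where the other libraries had 0, and Hspa1b at 2.13 CPM in replicate 4 of lean LN, where the others had 0 to 0.0583 CPM.

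In HFD LN, Stip1 was at 200.3 CPM in replicate 4 (162 to 165 in the others) and Dnajb11, an Hsp40 of the ER, at 57.4 CPM in replicate 3 (96.3 to 97.7). In HFD VAT, Pdia6 was at 251 CPM in replicate 3 (154 to 163). In lean LN, Hsp90b1 was at 193 CPM in replicate 2 (261 to 271), Ern1 at 15.9 CPM in replicate 4 (1.33 to 3.77) and the mitochondrial sum at 441 CPM in replicate 3 (352 to 365). In lean VAT, Syvn1 was at 96.6 CPM in replicate 2 (65.7 to 68.9).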

How the results depend on the processing

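On HFD 8 genes of the set were called between tissues. The number was 4 without the filter, 5 with a replicate block, 5 without the 3 VAT libraries with most missing genes and 3 to 6 without any 1 library. In lean mice 4 were called, with 2 under RLE normalisation, 2 without the filter, 2 with only the groups compared in the fit, 13 with limma voom, 3 with the block and 2 to 4 without any 1 library. Between diets 0 were called in VAT, 2 with DESeq2 and 1 with voom. The difference between diet effects gave 0, and 1 with DESeq2. The block ended the calls of Hsp90b1, Manf and Trib3 on HFD and of Hspa5 in lean mice, and changed no call in the diet comparisons or their difference. The deviations of same-numbered libraries correlated at -0.0941 to 0.0424, so the numbers were not taken as pairs, and 5 of 16 libraries correlated best with their own number. The ER to cytosolic difference on HFD (0.267) was -0.104 without Hspa5, chosen after seeing the data and with Hspa8 kept in the cytosolic sum. Leaving out 1 library gave 0.226 to 0.341 on HFD, -0.427 to -0.0348 in lean mice, 0.140 to 0.532 for diet in VAT and -0.230 to -0.0948 for diet in LN. The cause of these shifts was not tested.

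Over all genes, 714 were called between tissues on HFD (441 without the filter, 2578 with DESeq2), 476 in lean mice (1569 with DESeq2, 1350.0 with voom), 9 between diets in VAT (769 with DESeq2, 32 with voom, 62 without the 3 libraries, 2 without the filter, 1 with the block, 0 with only those groups), 0 in LN (236 and 3 with DESeq2 and voom) and 3 for the difference (635 with DESeq2, 46 without the 3 libraries). With 4 libraries per group, genes that are at 0 in part of a group have wide errors.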
